A study of Sus scrofa and Bos taurus with 31 samples.

Results

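Pigs carry no working UCP1, the uncoupling protein through which brown and beige adipocytes turn the mitochondrial proton gradient into heat. Open chromatin was therefore examined at 6 other genes that are tied to heat production or to the brown adipocyte, UCP2, UCP3, PPARGC1A, PRDM16, DIO2 and CIDEA, out of 20661 protein-coding genes of the RefSeq annotation of Sscrofa11.1. Each gene was taken with 10 kb on either side as its window, and all 6 windows held peak bases in enough libraries to be tested, as did 19625 of all windows. The measure was ATAC-seq, in which a transposase inserts into DNA that is not wrapped in nucleosomes, so that a peak marks a stretch of accessible chromatin.

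The pig libraries numbered 16, from adipose, skeletal muscle, liver, lung, spleen, cerebellum, cerebral cortex and hypothalamus of the same 2 animals, P348 and P350. Both animals were castrated Yorkshire littermates aged 6 months, with no treatment and no engineered allele described. The adipose tissue is called subcutaneous in the methods. Adipose and skeletal muscle were compared with the other 6 tissues, 12 libraries in all. Nuclei came from whole tissue, so fewer cells of a type and less accessible chromatin per cell cannot be told apart, and both animals come from 1 litter.

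Each library had its own peak list of between 99960 and 217308 peaks covering 64.1 to 155.6 Mb. Read depth is not in the lists, so a level is given as the peak bases in a window per Mb of all peak bases of that library. The labels were checked with marker genes. Summed over 6 muscle fibre genes the level was 538 and 733 in muscle and at most 129 elsewhere, and 5 of the 6 passed the test as higher in muscle. Summed over 6 adipocyte genes it was 144 and 177 in adipose, 124 and 181 in muscle and 35.5 to 199 in the other tissues, and FABP4 was the 1 of the 6 that passed in adipose, so the adipocyte genes did not set the adipose libraries apart. Whether the makeup of the adipose samples plays a part in the adipose results was not tested.

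In a brown or beige adipocyte, cold acts through noradrenaline and cyclic AMP to release fatty acids and to raise transcription of heat-producing genes. PPARGC1A, a coactivator that drives the making of mitochondria, and PRDM16, a zinc-finger regulator of brown fat identity, act upstream in this programme. DIO2 is the deiodinase that turns the prohormone thyroxine into active T3 inside the cell, and CIDEA sits on lipid droplets and is a classic marker of brown adipocytes. UCP2 and UCP3 are mitochondrial carriers related to UCP1. UCP2 is widely expressed and is abundant in immune cells, and UCP3 is best known from skeletal muscle, where it is linked to fatty acid use.

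The sequences at the start sites and at the accessible stretches that the results below turn on are given first, read from the RefSeq genome of Sscrofa11.1. The promoter sequences are the 150 bases just before a transcription start site (TSS) and hold no annotated exon. They are shown for UCP3 and CIDEA, the members for which muscle stood highest, and for PPARGC1A. The PPARGC1A start site was chosen for its fold among those with a peak in all 16 libraries. UCP2 and PRDM16 are not shown because their peaks mostly lay beside the annotated TSS. Capitals mark matches, on either strand, to AGGTCA (the core element bound by nuclear receptors), TAAAAATA (MEF2) or TTGCNNAA (C/EBP). Also searched were TCAAGGTCA (ERR), TGACGTCA (CRE), CAGCTG (E-box), CCCNNGGG (EBF) and GGGCGG (SP), which had no match in the sequences shown.
UCP3 promoter, chr9:8389453-8389602, minus strand: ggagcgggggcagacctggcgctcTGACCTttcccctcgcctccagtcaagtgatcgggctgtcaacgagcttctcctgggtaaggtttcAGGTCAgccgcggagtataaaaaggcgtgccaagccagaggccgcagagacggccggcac
CIDEA promoter, chr6:97268356-97268505, minus strand: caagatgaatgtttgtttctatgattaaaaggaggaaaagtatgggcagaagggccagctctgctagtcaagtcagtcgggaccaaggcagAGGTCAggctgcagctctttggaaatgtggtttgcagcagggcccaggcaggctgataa
PPARGC1A promoter, chr8:17946935-17947084, minus strand: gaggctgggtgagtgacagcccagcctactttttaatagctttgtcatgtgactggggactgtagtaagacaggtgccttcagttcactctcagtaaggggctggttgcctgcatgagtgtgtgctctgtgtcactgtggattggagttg

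The UCP3 promoter held 2 copies of AGGTCA and the CIDEA promoter 1. That motif was present in 7.52% of 20653 promoters of the same length, and the PPARGC1A promoter held no motif of the list. A match is a run of letters and not a bound site. Around the TSS (500 bases each side), the ratio of observed to expected CpG was 0.443 at UCP3, 0.205 at CIDEA, 0.381 at PPARGC1A and 0.334 at UCP2, all under the median of 0.636 for all genes. PRDM16 differed from these 4, with a ratio of 0.846 and a G and C content of 72.5%, the composition typical of CpG islands.

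The next sequences are the central 200 bases of 3 accessible stretches away from promoters. The PPARGC1A stretches were listed in both libraries of a single tissue and in no other library, the first in muscle and the second in adipose. The UCP3 stretch is the middle of the bases listed in both muscle libraries just upstream of the gene and was chosen after its values were seen.
PPARGC1A intron, muscle, chr8:17956152-17956351, plus strand: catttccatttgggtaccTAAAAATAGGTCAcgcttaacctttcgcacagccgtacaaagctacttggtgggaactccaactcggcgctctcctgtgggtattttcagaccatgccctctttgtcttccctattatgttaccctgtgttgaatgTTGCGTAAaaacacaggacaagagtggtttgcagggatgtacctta
PPARGC1A intron, adipose, chr8:18236792-18236991, plus strand: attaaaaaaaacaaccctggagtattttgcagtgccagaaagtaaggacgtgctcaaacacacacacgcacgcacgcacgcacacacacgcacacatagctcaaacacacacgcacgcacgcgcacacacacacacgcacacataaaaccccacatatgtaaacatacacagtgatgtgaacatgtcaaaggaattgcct
UCP3 upstream, muscle, chr9:8391817-8392016, minus strand: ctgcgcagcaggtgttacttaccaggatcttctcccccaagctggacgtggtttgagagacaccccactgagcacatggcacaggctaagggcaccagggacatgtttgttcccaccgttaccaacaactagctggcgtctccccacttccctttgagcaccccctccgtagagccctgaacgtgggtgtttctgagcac

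The muscle stretch of PPARGC1A held TAAAAATA, the binding sequence of the MEF2 factors of muscle, overlapping AGGTCA by 1 base, and 1 match to TTGCNNAA. Among 17442 windows of the same length from regions listed in both muscle libraries and at most 1 of the 12 comparator libraries, 5.06% held TAAAAATA and 18.6% AGGTCA. For the 5002 such windows of adipose the shares were 1.98% and 15.6%. The adipose stretch of PPARGC1A, rich in CA repeats, and the UCP3 stretch held no motif of the list. The central 200 bases of 2 PRDM16 regions of muscle and of 1 CIDEA region of adipose, not shown, held none either.

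The first question was how much of each library's accessible chromatin lay at the members. Per length, over the 16 libraries, peaks took up 4.40% to 20.8% of the UCP2 window, 3.02% to 29.1% for UCP3, 2.22% to 11.3% for PPARGC1A, 1.25% to 12.3% for PRDM16, 1.54% to 9.002% for DIO2 and 1.36% to 13.97% for CIDEA. The highest share of any member was that of UCP3 in muscle, 29.1% in P348 and 28.8% in P350. The plot of levels by library shows the same genes as peak bases per Mb.

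**Figure D1:**
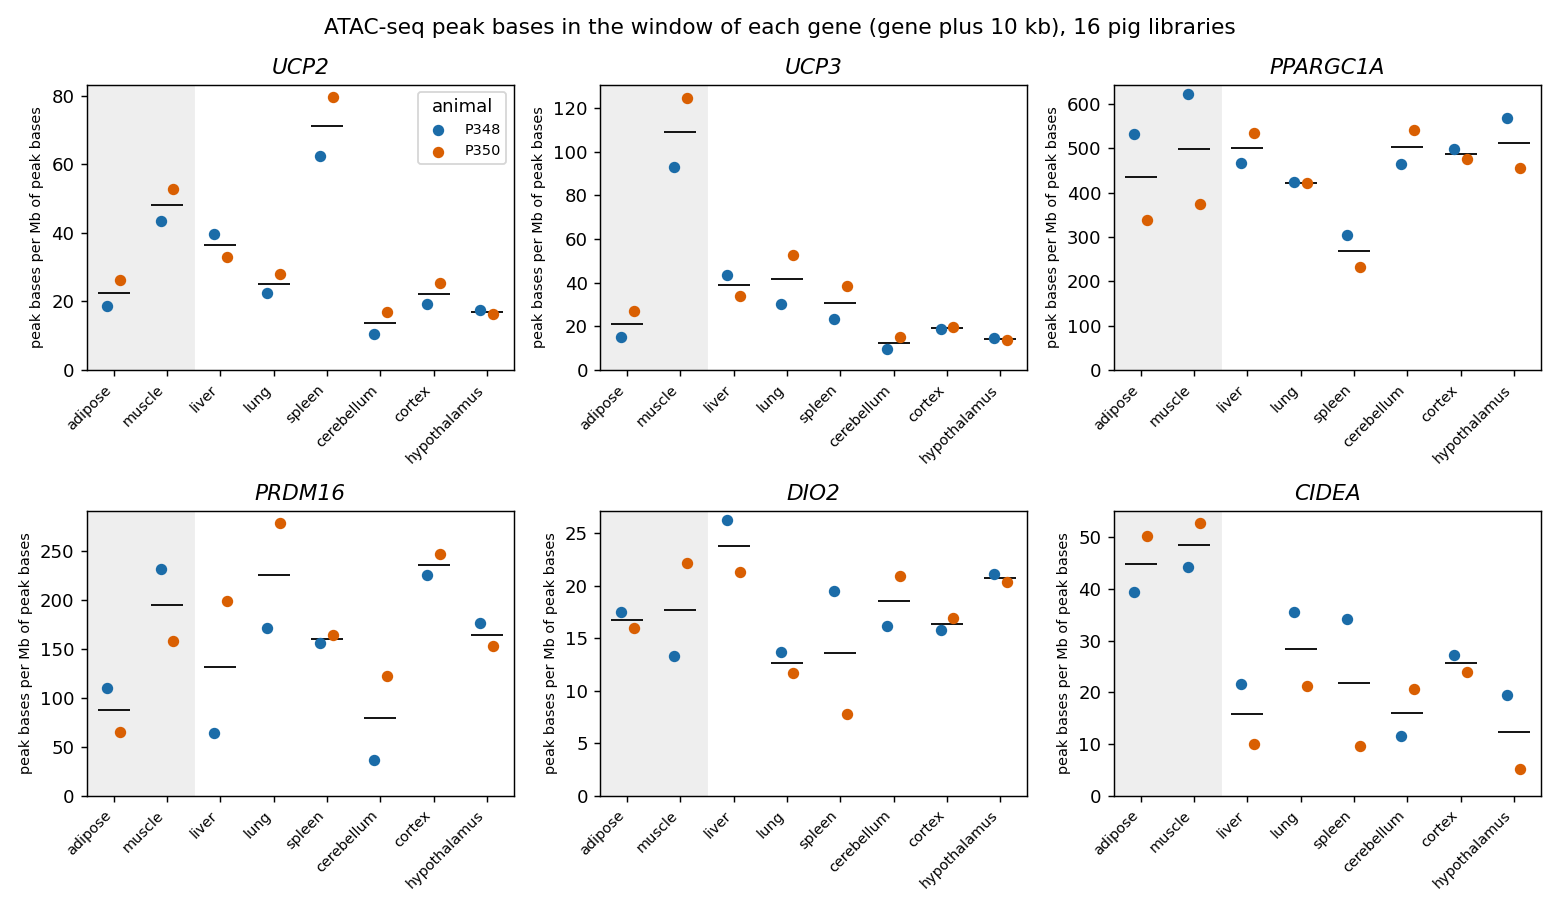
Peak bases per Mb of all peak bases (vertical axis, linear, from 0) in the window of each gene for 8 tissues (horizontal axis); points are the libraries of P348 and P350, bars the mean of both, and shading marks adipose and muscle. UCP3 reaches 92.8 and 124.8 in muscle against at most 52.9 elsewhere, UCP2 is highest in spleen, and CIDEA lies at 39.4 or above in adipose and muscle and at 35.5 or below in the other tissues.

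UCP3, the muscle carrier, had a level of 92.8 bases per Mb in muscle of P348 and 124.8 in muscle of P350. In adipose it had 15.04 and 27.1, and the other 12 libraries ran from 9.44 over a median of 21.5 to 52.9 in lung of P350. Both muscle libraries therefore lay above the other 14, as they did for 17.9% of all windows tested. After muscle the order was lung, liver, spleen, adipose and cerebral cortex, whose libraries overlapped from each to the next, then hypothalamus and cerebellum, which overlapped with each other.

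UCP2, the carrier known from immune cells, followed another order. Spleen had 62.4 and 79.7 bases per Mb, muscle 43.3 and 52.9 and liver 39.8 and 33.0, in each case both libraries above both of the next tissue. How many of all windows show such a gap between neighbouring tissues was not counted, here or for the other members. Adipose had 18.6 and 26.3, overlapping lung and cerebral cortex, and cerebellum was lowest at 10.6 and 16.9. UCP2 and UCP3 lie 13470 bases apart on chromosome 9 and are read in the same direction, and their windows share 6530 bases, so a peak between them counts for both. The UCP2 window also reaches into DNAJB13 and the UCP3 window into C2CD3, and peaks there cannot be assigned to one gene.

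CIDEA, the lipid droplet protein, had 39.4 and 50.3 bases per Mb in adipose and 44.3 and 52.8 in muscle. The other 12 libraries ran from 5.27 in hypothalamus of P350 over a median of 20.9 to 35.5 in lung of P348. All 4 adipose and muscle libraries lay above the other 12, which held for 1.79% of all windows, and adipose and muscle overlapped each other. CIDEA was the only member for which this was so.

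PRDM16, the regulator of brown fat identity, ran the other way in adipose, with 110 and 65.3 bases per Mb. Muscle had 231 and 158, and the other 12 libraries ran from 36.4 in cerebellum of P348 over a median of 168 to 279 in lung of P350. The animals were far apart in liver, at 63.9 and 199, and no tissue had both of its libraries above both of the next in the order.

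PPARGC1A, the mitochondrial coactivator, had 533 and 338 bases per Mb in adipose and 623 and 374 in muscle, while the other 12 libraries ran from 231 to 567 with a median of 465. In both tissues P348 was above P350, and muscle of P348 was the highest of all 16 libraries. Spleen, at 305 and 231, was the 1 tissue below its neighbour in the order, lung, in both animals. DIO2, the deiodinase, had 17.5 and 15.98 in adipose and 13.3 and 22.2 in muscle within a range of 7.81 to 26.2 over the others, and its highest tissue was liver, at 26.2 and 21.3.

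To ask whether adipose and muscle differed from the other tissues by more than the spread between animals, the log2 levels (after adding 1) were fitted with limma across all 19625 windows. Positive differences mean more peak bases in the tissue named first. The median window itself was shifted by 0.25 in adipose, 0.45 in muscle and -0.12 in adipose against muscle. The differences of the members are therefore also given relative to those shifts.

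In adipose, none of the 6 members passed the threshold of 0.05 on the adjusted p in either direction, where 2.34% of all windows were higher and 1.39% lower. At an unadjusted p under 0.05 there was 1 member (all windows: 23.4%), CIDEA, with a log2 difference of 1.28 ± 0.49 (SE) and an adjusted p of 0.149, or 1.03 above the shift of the median window. PRDM16 had a difference of -0.79 ± 0.43 (SE, adjusted p = 0.287), or -1.05 relative to the median window. The remaining differences were -0.24 for UCP2, -0.18 for UCP3, -0.04 for PPARGC1A and -0.02 for DIO2, with 95% intervals that ran from -0.85 at the lowest to 0.68 at the highest. The result depended on the peaks counted. With peaks of q under 0.01 PRDM16 was lower in adipose at -3.23 (adjusted p = 0.00516), with q under 0.0001 at -3.47 (adjusted p = 0.0342) and with lists of equal length at -1.84 (adjusted p = 0.012), and over all 30 alternatives its adjusted p ran from 0.00516 to 0.796. CIDEA passed with lists of equal length (1.75, adjusted p = 0.0407) and turned to -0.62 with q under 0.0001, where UCP3 was lower (-2.88, adjusted p = 0.0159).

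In skeletal muscle 3 of the 6 members were higher and none was lower, where 28.9% of all windows were higher and 14.1% lower. UCP3 rose most, by 2.17 ± 0.30 (SE, adjusted p = 2.44e-04), a 4.50-fold level and 1.72 above the shift of the median window, and its difference was larger than that of 97.8% of all windows. CIDEA was higher by 1.40 ± 0.49 (SE, adjusted p = 0.0376), or 0.95 above the median window. UCP2 was higher by 0.84 ± 0.25 (SE, adjusted p = 0.0171), or 0.40 above it, a difference larger than that of 68.7% of all windows. PPARGC1A (0.14, adjusted p = 0.618), PRDM16 (0.37, adjusted p = 0.492) and DIO2 (0.02, adjusted p = 0.961) did not pass.

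The muscle calls held in 27 of 30 alternatives for UCP3, in 22 for UCP2 and in 20 for CIDEA. The UCP3 call held whichever single library was left out, but not when the flanks were dropped (1.18, adjusted p = 0.283), when q under 0.01 was required (2.60, adjusted p = 0.081) or with lists of equal length (2.59, adjusted p = 0.0793). The UCP2 call was lost when either muscle library was left out (adjusted p = 0.0588 without P348 and 0.196 without P350) and against liver, lung and spleen alone, where the difference was 0.25. It was lost as well with q under 0.05 (0.81), 0.01 (0.53) and 0.0001 (1.58), without flanks (1.35) and with lists of equal length (0.66). The CIDEA call was lost without either muscle library (adjusted p = 0.125 without P348 and 0.234 without P350) and without liver of P350, lung of P350 or either cerebral cortex library, with adjusted p from 0.0507 to 0.0579. It was lost as well with no filter on low values (1.40), with q under 0.0001 (2.45), without flanks (0.80) and against liver, lung and spleen (1.26).

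Adipose and muscle were also compared with each other, using the same libraries as in the comparisons above. UCP3 was lower in adipose, with a log2 difference of -2.35 ± 0.40 (SE, adjusted p = 0.00195), as was UCP2 with -1.08 ± 0.32 (SE, adjusted p = 0.0354), so 2 of the 6 members were lower and none was higher, against 9.14% and 9.98% of all windows. PRDM16 had -1.16 ± 0.57 (SE, adjusted p = 0.179), PPARGC1A -0.19, CIDEA -0.12 and DIO2 -0.04. The 95% interval for CIDEA ran from -1.52 to 1.29, so a difference of either sign between the tissues is within it. The UCP3 call was lost without flanks, where the difference was -0.87 (adjusted p = 0.645), and with q under 0.05 (-2.89, adjusted p = 0.0533). The UCP2 call was lost when any 1 of the adipose or muscle libraries was left out, with adjusted p from 0.0506 to 0.221, with q under 0.01 (-1.52) and 0.0001 (-3.72) and with lists of equal length (-2.15).

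**Figure D2:**
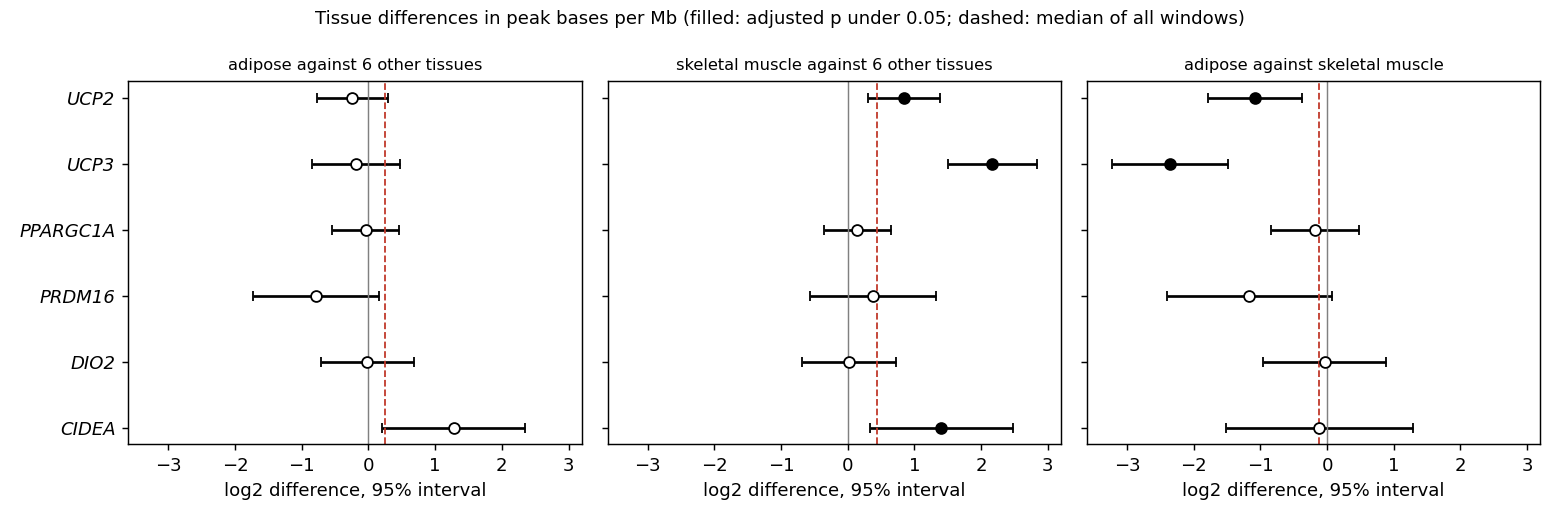
Log2 differences (horizontal axis) of the 6 members in 3 comparisons with 95% intervals from limma; filled points have an adjusted p under 0.05, the grey line is 0 and the dashed line the median of all windows. UCP3, UCP2 and CIDEA are filled for muscle, UCP3 and UCP2 for adipose against muscle, and no point is filled for adipose against the 6 tissues.

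With the tissue rather than the library as the unit, adipose and muscle together were set against the other 6 tissues in an exact two-sided permutation test over the 28 choices of 2 of 8 tissues. CIDEA had a log2 difference of 1.34 and an exact p of 0.0357, the smallest this design can give, unadjusted for the 6 members tested. For UCP3 the difference was 0.99 (exact permutation p = 0.25), muscle and adipose standing at opposite sides of the middle. The other members had exact permutation p of 0.714 (UCP2), 0.964 (PPARGC1A), 0.786 (PRDM16) and 1 (DIO2). The CIDEA value passed in 6 of 10 alternatives and lost the call with q limits of 0.01 and 0.0001, without flanks and with lists of equal length.

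Accessibility at the start sites was then compared, taking a peak within 2 kb of any annotated TSS of the gene. PPARGC1A has 7 such start sites, CIDEA 3 and each other member 1, so the members did not have equal room for a peak. UCP2 and PPARGC1A had such a peak in all 16 libraries, as did 54.8% of protein-coding genes. DIO2 and CIDEA had one in 15, PRDM16 in 14 and UCP3 in 12. In both adipose libraries 5 of the 6 members had one (all genes: 70.7%), the exception being UCP3, and in both muscle libraries all 6 had one (all genes: 70.3%). With peaks of q under 0.05, UCP2 had one in 15, PRDM16 in 13 and UCP3 in 11, and the other members were as before. With peaks of q under 0.0001 only PPARGC1A kept it in all 16 libraries (all genes: 28.3%), DIO2 in 14, UCP2 in 9, PRDM16 in 7, UCP3 in 4 and CIDEA in 2.

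**Figure D3:**
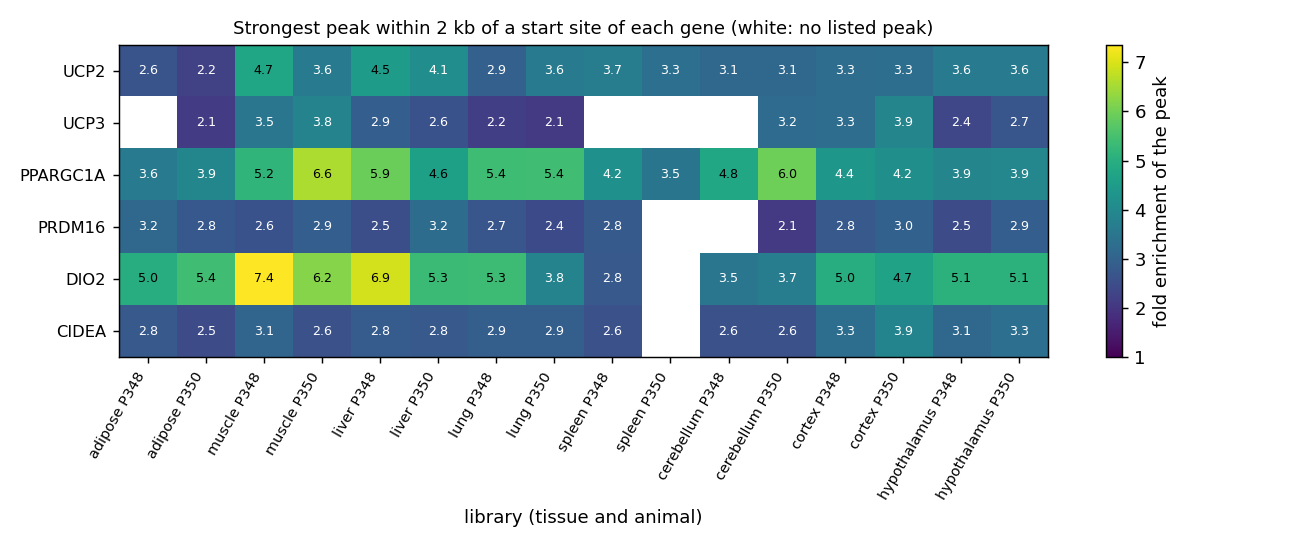
Fold enrichment over local background of the strongest peak within 2 kb of a TSS (colour and printed value) for each gene (rows) and library (columns); white cells have no listed peak. DIO2 reaches 7.4 in muscle of P348 and has no peak in spleen of P350, and UCP3 has none in adipose of P348, either spleen library or cerebellum of P348.

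The highest fold of any start-site peak of the 6 was 7.36, at DIO2 in muscle of P348. In muscle of P350 DIO2 had 6.22, under the 6.57 of PPARGC1A. DIO2 had 6.93 and 5.33 in liver and 4.95 and 5.40 in adipose. Spleen was lowest, with 2.77 in P348 and no peak in P350. A second DIO2 region 2036 bases upstream of the TSS, chr7:103112785-103113114, was listed in all 16 libraries and ordered the tissues differently. There spleen had folds of 5.66 and 4.32 and liver 4.99 and 5.29, while muscle had 2.99 and 2.63. Over the whole DIO2 window these did not add up to a difference that passed, and with q under 0.0001 the sign for adipose was positive (1.05, adjusted p = 0.0137) and for muscle negative (-0.90, adjusted p = 0.0443).

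The distance to the TSS mattered most for 2 members. Within 500 bases of the TSS, PRDM16 had a peak in 2 libraries rather than 14, and UCP2 in 7 rather than 16. CIDEA had one in 14 rather than 15, since its nearest peak in adipose of P350 lay 1059 bases away. The PRDM16 libraries with a peak within 500 bases were both from muscle, where peaks of 2128 and 2268 bases reached to 0 and 49 bases from the TSS. The adipose peaks of PRDM16 were 221 and 222 bases wide and ended 1752 and 1768 bases away. At UCP2 a peak upstream of the annotated start was listed in all 16 libraries, in adipose 396 and 475 bases away, and it reached the start in spleen of P348 alone. Muscle, like liver, spleen and cerebral cortex, had a further peak inside the gene, in muscle with folds of 4.75 and 3.64 beside 3.39 and 3.57 for the upstream peak.

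The UCP3 window was divided into the 10 kb upstream, the gene and the 10 kb downstream. Upstream, muscle had 30.8 and 53.0 bases per Mb, and the other 14 libraries had at most 20.4. Downstream it had 35.0 and 52.9 against at most 22.7. On the gene it had 26.9 and 18.9, within the range of 0 to 25.1 of the others for P350 and above it for P348. The map of the UCP3 and UCP2 locus shows these peaks. Other windows were not divided into parts, so no share of all windows is given. A region 1727 bases upstream of the TSS, chr9:8391179-8392637, had folds of 3.50 and 3.84 in muscle, 2.43 in lung of P350 and 2.41 in cerebellum of P348, and no peak elsewhere. The muscle peaks there had a −log10 q of 81.2 and 105, while the start-site peak in cerebral cortex of P350, of fold 3.90, had 7.26. A q-value thus did not follow the fold in the same way in each library, and the part of read depth in this was not tested.

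Further upstream of UCP3, within C2CD3, the region chr9:8396605-8398854 was strongest in liver, with folds of 8.37 and 5.55, followed by muscle with 4.37 and 4.30. On the TSS itself muscle was not set apart, with 2.71 and 2.78 against 3.28 and 3.90 in cerebral cortex and 2.91 and 2.59 in liver. Adipose had a single peak there, of 2.11 in P350. Downstream of UCP3, towards UCP2, the region chr9:8373832-8376917 was listed in both libraries of muscle (2.05 and 2.28), both of cerebellum (3.44 and 5.31) and adipose of P350 (2.29).

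**Figure D4:**
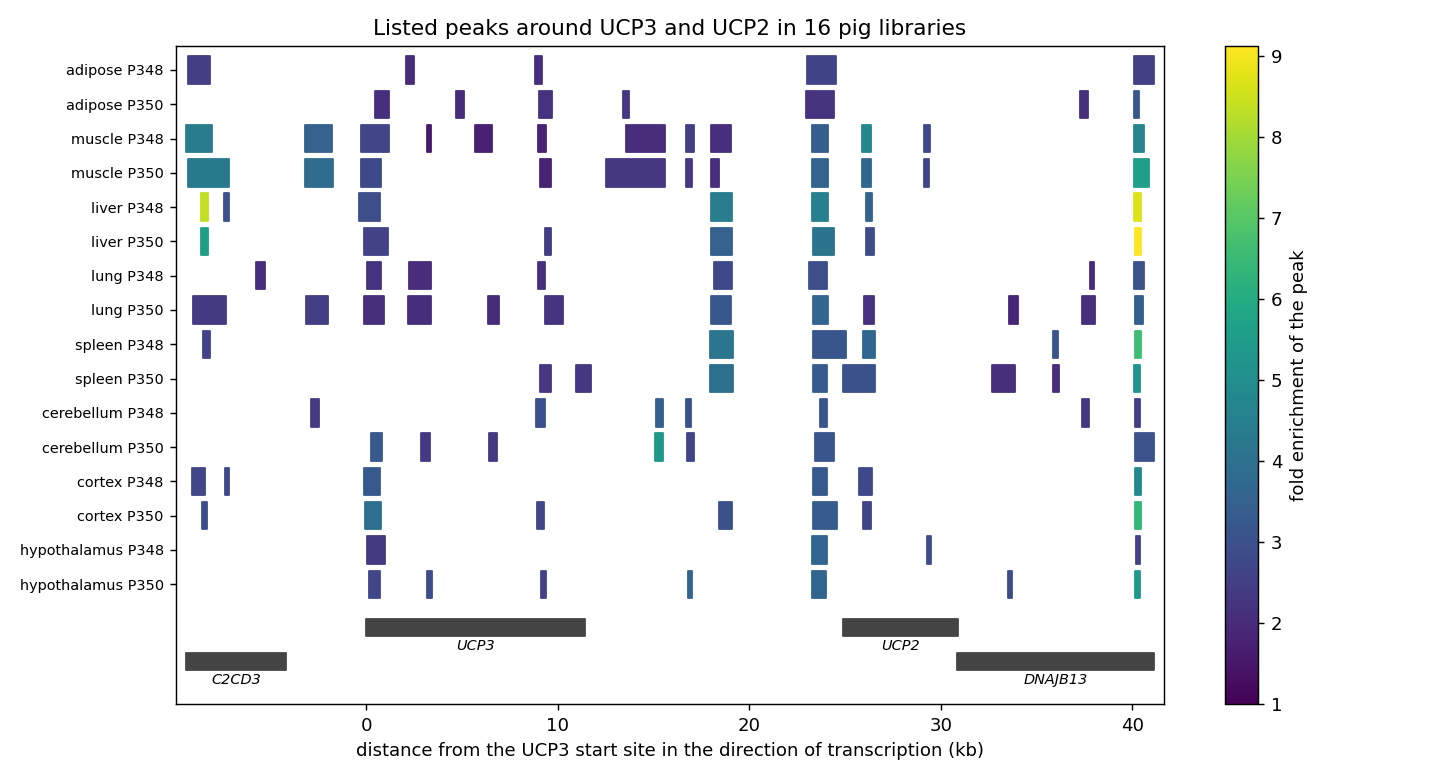
Listed peaks (bars, coloured by fold enrichment) in 16 libraries (rows) against the distance from the UCP3 start site in kb, with genes below. The upstream peak in the stretch from -3.19 to -1.73 kb is present in both muscle libraries, in lung of P350 and in cerebellum of P348, and the peak just before UCP2 is present in all 16.

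PPARGC1A is a long gene with 7 annotated start sites on chromosome 8, which allowed its promoters to be compared. The far upstream pair (18527411 and 18527953) and the pair at 17946829 and 17946934 had a peak within 2 kb in all 16 libraries. At the far upstream pair muscle had the highest folds, 5.16 and 4.95, and adipose the lowest, 2.73 and 2.65. The start site at 17964684 had a peak in 12 libraries and that at 17924032 in 11. Each time both muscle and both cerebellum libraries were included and neither adipose library. Neither spleen library had a peak at 17964684. Near 17964684 muscle had a pair of peaks, one with folds of 5.79 and 6.57 and one with 1.91 and 2.53, and in P348 only the weaker one lay within 2 kb of the start. The start at 17941867 had a peak in 5 libraries, among them both of muscle with 1.97 and 2.78 and both of cerebellum with 2.14 and 2.30. Open chromatin at a start site does not show which start is used.

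**Figure D5:**
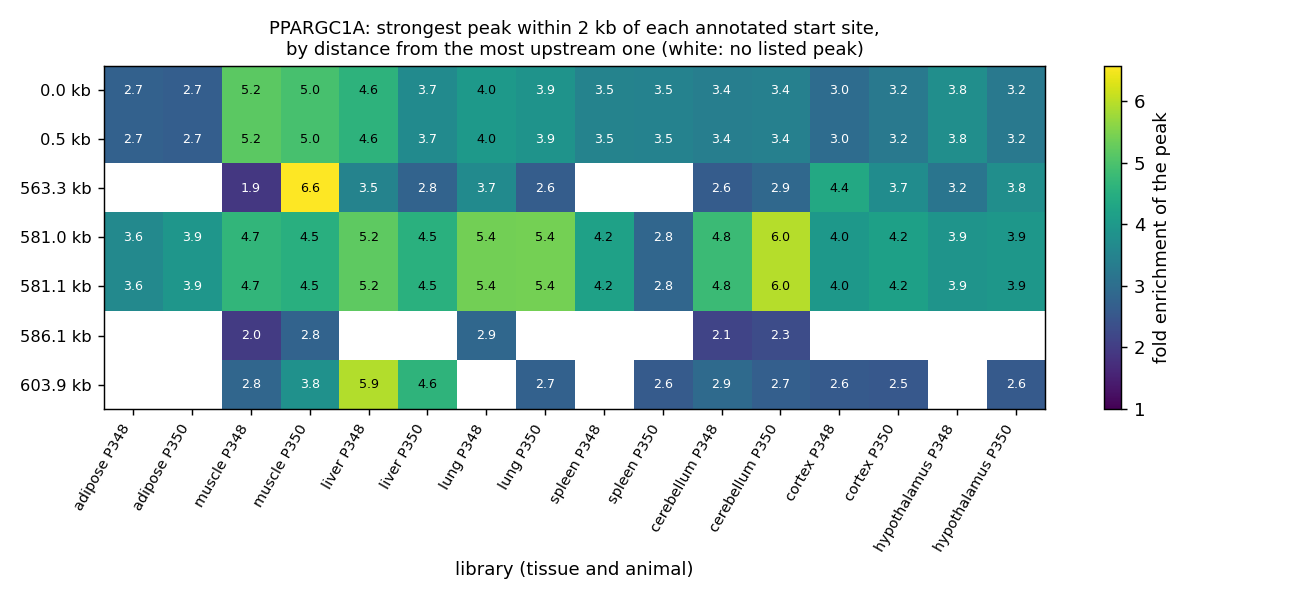
Fold enrichment of the strongest peak within 2 kb of each annotated PPARGC1A start site (rows, by distance from the most upstream one) in 16 libraries (columns); white cells have no listed peak. Adipose has peaks at the first pair and at the pair near 581 kb only, while both libraries of muscle and of cerebellum have peaks at all 7.

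To look for elements particular to a tissue, peaks that overlapped by at least 1 base were merged over the 16 libraries, which gave 533944 regions. The windows held 212 of them at PPARGC1A, 125 at PRDM16, 12 at UCP3, 11 at CIDEA and 9 each at UCP2 and DIO2. Regions listed in both animals of all 8 tissues made up 3.15% of all regions. Among the members UCP2 had 2 such regions, PPARGC1A 4 and DIO2 1, and UCP3, PRDM16 and CIDEA had none.

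Regions in both muscle libraries and at most 1 of the 12 comparator libraries made up 3.27% of all regions. There were 6 at PPARGC1A (2.83% of its regions), 2 at PRDM16 (1.60%), 1 at UCP2 and none at UCP3, DIO2 or CIDEA. The strongest was the PPARGC1A intron region chr8:17956054-17956448, 8236 bases from the nearest TSS, whose sequence with the MEF2 motif is printed above, with folds of 5.22 and 5.10. The strongest at PRDM16 was also intronic, chr6:64898025-64898339, with 4.05 and 4.91, and lay 193844 bases from the TSS. Neither was listed in any other library.

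Regions in both adipose libraries and at most 1 comparator made up 0.937% of all regions. PPARGC1A had 3 (1.42% of its regions) and CIDEA 1 of 11. The strongest, chr8:18236750-18237033 in an intron of PPARGC1A, had folds of 4.53 and 5.63 and was listed in no other library. The CIDEA region, chr6:97269397-97269709, lay 1042 bases upstream of the gene with folds of 2.08 and 2.47, again in adipose alone. PRDM16 had 2 regions of 125 listed in both adipose libraries (all regions: 14.5%) and 12 listed in both muscle libraries (all regions: 16.1%), and neither of the former was limited to at most 1 comparator library.

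The wider programme was read from lists of genes by role, and each count is given for windows past the adjusted threshold. Of 20 transcription genes of the thermogenic programme, 11 were higher and 1 was lower in muscle (all windows: 28.9% and 14.1%), and 1 was higher and none lower in adipose (all windows: 2.34% and 1.39%). The largest differences in muscle were those of PPARA, the receptor that drives fatty acid oxidation (2.88), PPARGC1B, the close relative of PPARGC1A (1.98), TBX15, a T-box transcription factor (1.97), and RXRA, the partner of many nuclear receptors (1.85). PPARGC1B had 309 ± 40.7 bases per Mb (SD, n = 2) in muscle against a median of 86.5 in the other tissues. The 1 that was lower was EBF2, a brown preadipocyte factor (-0.96). The 1 higher in adipose was PPARG, the master regulator of adipocyte differentiation, at 90.8 ± 10.9 (SD, n = 2) against a median of 41.9 (0.88, adjusted p = 0.0467). PPARG was not highest in adipose, since libraries of the other 6 tissues ran from 22.9 to 138. The list's median difference in muscle was 1.07, beside 0.45 for all windows.

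Of 12 genes of adrenergic signalling and lipolysis, none passed in adipose (all windows: 2.34% higher and 1.39% lower). In muscle 6 were higher and 1 lower (all windows: 28.9% and 14.1%). MGLL, a monoglyceride lipase (1.31), PNPLA2, the first lipase of triglyceride breakdown (1.19), and ABHD5, the activator of PNPLA2 (0.95), were among the higher ones. Of 12 genes of calcium and creatine cycling, routes of heat production that do not need UCP1, none passed in adipose (all windows: 2.34% higher and 1.39% lower). In muscle 7 were higher and 1 was lower (all windows: 28.9% and 14.1%), with a list median of 1.89. The largest differences were those of the creatine kinase CKM (3.38), SLN (3.32), the calcium pump ATP2A1 (3.18) and the release channel RYR1 (2.60). SLN, the regulator that uncouples the calcium pump, had 85.6 ± 20.5 bases per Mb (SD, n = 2) in muscle and 2.75 ± 0.57 (SD, n = 2) in adipose, a difference between them of -4.52 (adjusted p = 1.96e-04). The 1 that was lower was RYR2, the release channel of heart and brain (-2.27). Muscle uses SLN, ATP2A1, RYR1 and CKM in contraction, and CKM is on the muscle marker list too.

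Of 14 genes of fatty acid uptake and oxidation, 1 was higher and none lower in adipose (all windows: 2.34% and 1.39%). In muscle 9 were higher and 1 was lower (all windows: 28.9% and 14.1%). The largest differences were those of CD36, a fatty acid transporter (4.10), HADHB (2.25) and HADHA (1.75), the subunits of the mitochondrial trifunctional protein, and LPL, the lipoprotein lipase (1.74). FABP4, the adipocyte fatty acid carrier, was the 1 lower in muscle, where it is listed at 0 in both libraries, and the 1 higher in adipose, with 11.4 ± 2.39 bases per Mb (SD, n = 2). Libraries of the other 6 tissues had a median of 0 for FABP4 but reached 26.8, above adipose. Of 15 measured genes of other brown or beige markers, none passed in adipose (all windows: 2.34% higher and 1.39% lower). In muscle 3 were higher and 5 lower (all windows: 28.9% and 14.1%). LHX8 is listed at 0 in both muscle libraries and had 46.9 ± 3.42 (SD, n = 2) in adipose, within the 26.7 to 56.8 of the other tissues. SLC36A2, an amino acid transporter (-2.47), and TNFRSF9, a cytokine receptor (-2.34), were lower in muscle too, while P2RX5, a purine receptor, was higher (2.31). For all of these lists the comparisons share the same 12 comparator libraries.

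RefSeq annotates a UCP1 model at chr8:86522028-86526162 between TBC1D9 and ELMOD2, although the pig gene is known to be broken. The window of this model reaches into both neighbours, and peaks there cannot be assigned to a single gene. A peak lay within 2 kb of the start of this model in all 16 libraries (all genes: 54.8%), with folds from 2.55 to 3.96. It kept a q under 0.0001 in 2 libraries, neither of them adipose or muscle. Adipose had 13.2 and 19.1 bases per Mb and muscle 13.7 and 3.69, and neither tissue passed against the other 6 (adjusted p = 0.748 and 0.159). Of 6 genes read for the place of UCP1, 1 was higher and none lower in muscle (all windows: 28.9% and 14.1%). In adipose, too, 1 was higher and none lower (all windows: 2.34% and 1.39%). Both times it was SLC25A30, a mitochondrial carrier related to the uncoupling proteins (2.18, adjusted p = 7.28e-05 in muscle and 1.11, adjusted p = 0.0395 in adipose). Its mean level in adipose, 39.7 bases per Mb, lay within the 5.04 to 48.0 of the other 6 tissues.

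Finally, the windows whose log2 levels over the 16 libraries were most like each member's were listed, leaving out genes within 1 Mb. The Pearson r is a description, since libraries of a tissue share their source and all levels are shares of a library's total. UCP3 was most like IP6K3 (r = 0.93) and UCP2 most like TCEA2 (0.94). PRDM16 was most like WSCD1 (0.86), CIDEA most like LOC110259673 (0.85), PPARGC1A most like SFRP1 (0.83) and DIO2 most like NKD2 (0.76).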

How the data were processed

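The pig part of the study was used, 16 ATAC-seq libraries of 8 tissues from 2 littermates; the cattle lists were not used here. According to the processing notes and methods, reads were trimmed (Trim Galore 0.4.5), aligned to Sscrofa11.1 (BWA 0.7.17), filtered (SAMtools 1.10) and cleared of duplicates (Picard 2.18.17), and the authors called broad peaks per library with MACS2; a shift of read ends is not given in the sources used here. The deposited score, the fold ratio over local background and the −log10 p-value and −log10 q-value of each peak were used to filter or describe peaks, and the lists hold −log10 q from 1.00 upwards although the methods give a q limit of 0.05, which was added as an alternative after seeing the data. Libraries were grouped by tissue from their labels, with the animal as replicate. The animals pair the libraries across tissues. Deviations of libraries of 1 animal from their tissue means had a median correlation of 0.0104 over 56 pairs.

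From these lists, peak bases in each gene plus 10 kb were counted per Mb of peak bases, 1 was added, and limma 3.58.1 (R 4.3.3, with trend) was fitted over windows with peak bases in at least 2 libraries, with Benjamini-Hochberg adjustment over all 19625 windows, a threshold of 0.05, 8 residual degrees of freedom and two-sided tests. The fit was tested on simulated data. Read depth is unknown, so levels carry no counting interval, and a deeper library can list more and weaker peaks. The 6 genes and the gene lists were chosen with earlier results of these data known. Of each list, up to 4 genes are named, those past the threshold in muscle with the largest change first. EBF2, PPARG, RYR2 and FABP4, each alone in its direction, are named beside them and were chosen after their values were seen. Not every gene alone in its direction is named. A gene named by this rule and a promoter sequence are not reported here. Genes, starts and sequences came from RefSeq annotation of Sscrofa11.1, while the study used Ensembl. Alternatives were other pseudocounts, q limits, flanks, comparators, peak numbers, lists of equal length, autosomes, no filter, no trend, an animal block and leaving out each library.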

Additional observations from a re-analysis of the deposited data

Results flagged for a closer look

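UCP3 and UCP2 are listed here because their differences from the same 6 tissues were unlike in adipose and in muscle by the test of that difference itself. For UCP3 the log2 difference of adipose minus muscle was -2.35 (limma, adjusted p = 0.00195), with both muscle libraries above both adipose libraries, and the call was lost without flanks (-0.87) and with q under 0.05 (-2.89). For UCP2 it was -1.08 (limma, adjusted p = 0.0354), again with both muscle libraries above both adipose libraries, and the call was lost when any 1 of these 4 libraries was left out, with q under 0.01 (-1.52) and 0.0001 (-3.72) and with lists of equal length (-2.15). The windows of UCP2 and UCP3 share 6530 bases, in which muscle had peaks, and the part of those bases in either result was not tested. How often both muscle libraries lie above both adipose libraries over all windows was not counted. With 2 libraries a group, no library was tested as standing apart from its group.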

How the results depend on the processing

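Of 246 fitted differences of the members under alternatives other than leaving out a library, 187 kept their direction and side of the threshold, and of the 30 that changed sign 3 were past the threshold, all of DIO2 with q under 0.0001. The log2 differences that changed follow by setting, and the cause was not tested. Counts of members called under a setting stand without the share of all windows, which was taken for the main fit only. The fit with the animal as replicate block left every difference as it was, since both animals are in all tissues (UCP3 in muscle 2.17, adjusted p = 1.82e-04), and it changed no call of a member, nor did a pseudocount of 0.2 or the fit without the trend. With a pseudocount of 5, the sign turned for DIO2 -0.0047 in both tissues together (permutation). With no filter on low values, calls were lost by CIDEA 1.40 in muscle. With peaks of q under 0.05 (added after seeing the data), calls were gained by PRDM16 -1.63 in adipose against muscle. Calls were lost by UCP2 0.81 in muscle, UCP3 -2.89 in adipose against muscle. The sign turned for PPARGC1A 0.11 and DIO2 0.043 in adipose, DIO2 -0.028 in muscle, DIO2 0.072 and CIDEA 0.088 in adipose against muscle, UCP2 -0.35 in both tissues together (permutation). With peaks of q under 0.01, calls were gained by PRDM16 -3.23 in adipose, PRDM16 -3.45 in adipose against muscle. Calls were lost by UCP2 0.53 and UCP3 2.60 in muscle, UCP2 -1.52 in adipose against muscle, CIDEA 1.66 in both tissues together (permutation). The sign turned for DIO2 0.69 in adipose, DIO2 -0.24 in muscle, DIO2 0.93 in adipose against muscle, UCP2 -0.23 in both tissues together (permutation). The members called were then 1 lower in adipose, 1 higher in muscle and 2 lower in adipose against muscle. With peaks of q under 0.0001, calls were gained by UCP3 -2.88 and PRDM16 -3.47 in adipose, PPARGC1A 0.77 in muscle, PPARGC1A -0.86 and PRDM16 -4.38 in adipose against muscle. Calls were lost by UCP2 1.58 and CIDEA 2.45 in muscle, UCP2 -3.72 in adipose against muscle, CIDEA 0.91 in both tissues together (permutation). The sign turned for DIO2 1.05 and CIDEA -0.62 in adipose, DIO2 -0.90 in muscle, DIO2 1.95 in adipose against muscle, UCP2 -0.28 in both tissues together (permutation). The members called were then 1 higher in adipose, 2 lower in adipose, 2 higher in muscle, 1 lower in muscle, 1 higher in adipose against muscle and 3 lower in adipose against muscle. With flanks of 0 kb, calls were lost by UCP2 1.35, UCP3 1.18 and CIDEA 0.80 in muscle, UCP3 -0.87 in adipose against muscle, CIDEA 0.61 in both tissues together (permutation). The sign turned for UCP3 0.30 in adipose, DIO2 -0.34 in muscle, DIO2 0.21 in adipose against muscle, UCP2 -0.28 and DIO2 -0.24 in both tissues together (permutation). The members called were then 0 higher in muscle and 1 lower in adipose against muscle. With flanks of 50 kb, the sign turned for UCP2 0.32, UCP3 0.41 and DIO2 0.18 in adipose, DIO2 -0.11 in muscle, DIO2 0.29 in adipose against muscle. With lists of equal length, calls were gained by PRDM16 -1.84 and CIDEA 1.75 in adipose, PRDM16 -1.94 in adipose against muscle. Calls were lost by UCP2 0.66 and UCP3 2.59 in muscle, UCP2 -2.15 in adipose against muscle, CIDEA 1.62 in both tissues together (permutation). The sign turned for PPARGC1A 0.11 in adipose, DIO2 -0.27 in muscle, DIO2 0.24 and CIDEA 0.26 in adipose against muscle, UCP2 -0.41 and DIO2 -0.15 in both tissues together (permutation). The members called were then 1 higher in adipose, 1 lower in adipose, 1 higher in muscle and 2 lower in adipose against muscle. With peak numbers per 10000 peaks, the sign turned for UCP3 0.015, PPARGC1A 0.012 and DIO2 0.045 in adipose, DIO2 0.011 in adipose against muscle, PRDM16 0.0031 in both tissues together (permutation). On autosomes only, the sign turned for DIO2 -0.0072 in both tissues together (permutation). Against liver, lung and spleen, calls were lost by UCP2 0.25 and CIDEA 1.26 in muscle. The sign turned for PPARGC1A 0.15 and DIO2 0.10 in adipose. The members called were then 1 higher in muscle. With each of the 16 libraries left out in turn, the fitted differences whose call or sign changed ran from -0.59 to 0.22 for UCP3, -0.37 to 0.29 for PPARGC1A and -0.12 to 0.085 for DIO2 in adipose. They ran from 0.70 to 0.98 for UCP2, -0.22 to 0.51 for PPARGC1A, -0.33 to 0.37 for DIO2 and 1.25 to 1.54 for CIDEA in muscle. They ran from -1.32 to -0.84 for UCP2, -0.55 to 0.18 for PPARGC1A, -0.39 to 0.31 for DIO2 and -0.29 to 0.054 for CIDEA in adipose against muscle. The members called were 1 to 3 higher in muscle and 1 to 2 lower in adipose against muscle. With 500 bases from the TSS, UCP2 had a start-site peak in 7 libraries and PRDM16 in 2, and with q under 0.0001 UCP2 had one in 9, PRDM16 in 7, UCP3 in 4 and CIDEA in 2. Read depth is unknown, so its part in the q limits was not tested. Where a member did not pass, a difference as large as either end of its 95% interval remains possible with 2 littermates a tissue. With a library left out its tissue has 1 library, which is then assumed to vary like the others.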
